A study of Mus musculus with 6 samples.

Results

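The arrays carried 4087 probes of a series whose names begin with ASMM10SM, here called SM probes, out of 60691 probes that were not array controls. They were chosen by name alone, with no measured value. The working description of the series is short noncoding RNA, but the tables used here pair these probes with a name only, with no gene, position, RNA class or sequence, so the description could not be checked against the data and no probe is given a gene. The other probes were 48057 of a series named EP3A, 8497 named EP3B and 50 Agilent catalogue probes. Each SM probe was a single spot, and none was saturated on any array.

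Sperm RNA came from male C57BL/6 mice that entered the study at 5 weeks of age and were sampled at 15 weeks. The control group drank control water for 10 weeks, and the Cd group drank water with CdCl2 at 100 mg/L for the same time. Each group had 3 arrays from samples labelled as biological replicates, and 1 array held both RNA fractions of 1 sample, with the immunoprecipitated fraction (IP) in the red dye Cy5 and the supernatant in the green dye Cy3. What the antibody was raised against is not stated in the labels. The labels describe no dye swap, and fraction and dye therefore cannot be told apart wherever IP is compared with supernatant. The tissue label could not be checked with SM probes, since none of them is paired with a sperm marker gene.

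Mature sperm transcribe little, and their RNA is largely left over from the germ cells that formed them or is taken up in the epididymis. Short noncoding RNAs are a large part of that pool and include microRNAs, piRNAs, fragments of transfer RNA, and small nuclear and nucleolar RNAs. On an immunoprecipitation array, RNA captured with the antibody goes to the IP fraction and the rest stays in the supernatant. The ratio of the fractions therefore describes how each RNA was divided. Cadmium is a toxic metal that is known to damage the testis.

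Both the scan and the brightness of the arrays moved with the groups. All control arrays shared 1 scan and all Cd arrays shared a different one, and an effect of scan and one of treatment cannot be told apart. Over all probes, 28.2% to 44.8% were well above background in the IP channel in controls and 43.7% to 49.3% on the Cd arrays. The matching range in the supernatant channel was 35.1% to 44.0% against 45.6% to 49.8%. The signal of the 5′ Gapdh probes less that of the 3′ probes, a sign of RNA integrity and of labelling, was -1.43 ± 0.03 (SD, n = 3) log2 units in control IP and -1.86 ± 0.05 (SD, n = 3) in Cd IP, and the groups did not overlap (exact permutation test, p = 0.1, 2-sided). In the supernatant it was -0.37 ± 0.20 (SD, n = 3) in controls and -0.65 ± 0.11 (SD, n = 3) in Cd, also without overlap (exact permutation test, p = 0.1, 2-sided). The part of this Gapdh difference in the results below was not tested. Over the 1573 SM probes tested for level, Cd array 3 correlated less with the other Cd arrays (Pearson r of 0.891 and 0.885 across probes) than with control array 1 (0.946), while Cd arrays 1 and 2 gave 0.983 and the control arrays 0.946 to 0.980 among themselves. With 3 arrays against 3, the smallest 2-sided p of an exact permutation test is 0.1, so no test of a single value between the groups could reach 0.05, and the p-values measure only the spread between these arrays.

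Most SM probes gave no usable signal in sperm RNA. Of the 4087, 2162 (52.9%) never passed the scanner software's flag for a signal well above background, in either channel of any of the 6 arrays. A further 330 passed that flag on 1 or 2 arrays and 1595 passed it on at least 3. At the other end, 624 probes (15.3%) were well above background in both channels on all 6 arrays. The SM signal was therefore carried by a minority of the series.

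In the IP channel, SM detection was 16.6%, 24.9% and 28.3% on control arrays 1 to 3 and 32.9%, 31.6% and 31.3% on Cd arrays 1 to 3. The lowest Cd value was above the highest control value, with means of 23.3% ± 6.03 (SD, n = 3) and 31.9% ± 0.855 (SD, n = 3), a difference of 8.66 percentage points (exact permutation test, p = 0.1, 2-sided). In the supernatant channel the control arrays gave 29.9%, 32.3% and 36.3%, and the Cd arrays gave 39.5%, 36.8% and 41.6%. These groups did not overlap either, and the difference was 6.48 percentage points (exact permutation test, p = 0.1, 2-sided). Mean detection of the EP3A and EP3B probes was also higher on the Cd arrays, by 9.44 and 7.46 percentage points in the IP channel with overlap (exact permutation test, p = 0.2 each, 2-sided) and by 8.71 and 6.33 in the supernatant channel without overlap (exact permutation test, p = 0.1 each, 2-sided). Supernatant detection was above IP detection for SM probes on all 6 arrays, whereas for the EP3A and EP3B probes the order of the channels was not the same on every array.

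**Figure D1:**
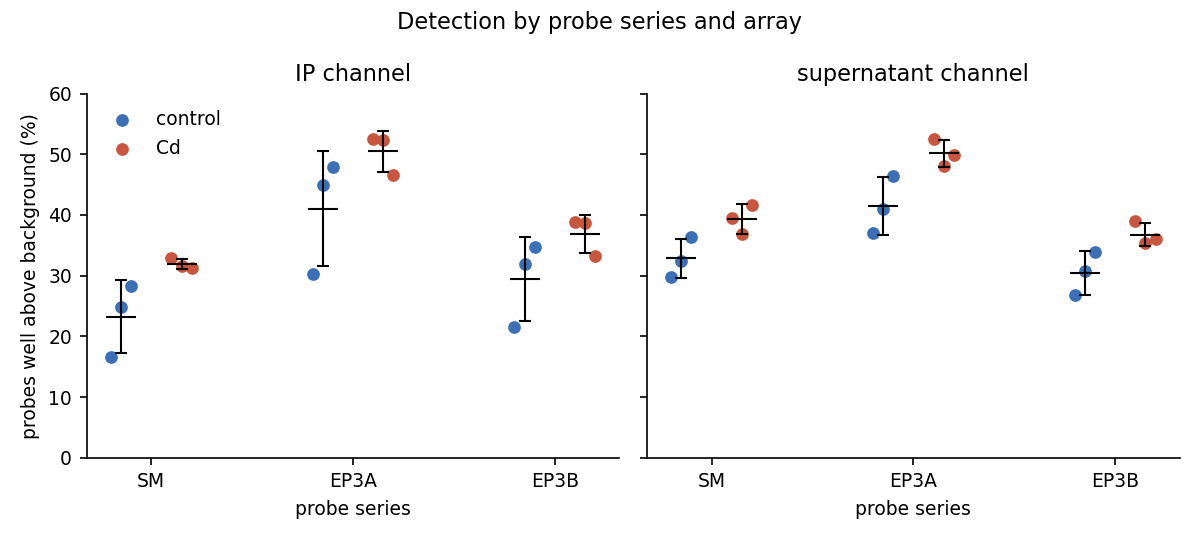
Percent of SM, EP3A and EP3B probes that were well above background in the IP channel (left) and the supernatant channel (right). Points are arrays, the horizontal bar is the group mean and the error bar 1 SD over 3 arrays; SM detection in IP ran from 16.6% to 28.3% in controls and from 31.3% to 32.9% in Cd.

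Detection in a single channel was lopsided. The number of SM probes above background in both channels was 656, 938 and 1089 in controls and 1272, 1200 and 1236 on the Cd arrays. Probes seen in the supernatant only numbered 564, 384 and 396 in controls and 341, 306 and 466 on the Cd arrays. Probes seen in the IP only numbered between 21 and 91 on every array. On all 6 arrays the supernatant-only class was thus several times the size of the IP-only class, and the control array with the lowest IP detection had the most probes seen in the supernatant only. Taking only probes that behaved alike on all 6 arrays, 65 were above background in the supernatant and never in the IP, and 2 did the reverse.

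A switch of detection between the groups went in one direction. In the IP channel, 62 SM probes (1.52%) were above background on no control array and on all 3 Cd arrays, and 0 did the opposite. In the supernatant channel the numbers were 50 (1.22%) and 0. Over all probes of the array the same switch was made by 620 (1.02%) in the IP channel and by 840 (1.38%) in the supernatant channel, with 1 and 0 in the opposite direction. The SM share was above that of all probes in the IP channel and below it in the supernatant, differences that were not tested. The lowest RNA level (defined below) among probes well above background was -1.82, -2.56 and -2.83 in controls and -3.30, -3.14 and -2.98 on the Cd arrays, and its part in the switch was not tested.

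The processed intensity of SM probes is the scanner's value after background subtraction and dye normalization. The median SM intensity was 41.7, 32.0 and 28.1 in control IP and 23.6, 25.9 and 24.7 in Cd IP. Those medians lie among probes not above background, and they ran opposite to the brighter part of the series. The 90th percentile was 440, 569 and 626 in control IP and 806, 688 and 805 in Cd IP, with no overlap (exact permutation test, p = 0.1, 2-sided). In the supernatant the 90th percentile was 1303, 2271 and 2657 in controls and 2740, 2800 and 2718 in Cd. In the supernatant too, the Cd arrays were all higher than the controls, and the 90th percentile there was higher than in the IP on each array. The brightest SM spot reached 201560 to 273270 in control IP and 408610 to 541740 in Cd IP, against 157610 to 253380 and 227370 to 281320 in the supernatant.

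As a share of the summed intensity of all probes, SM probes held 3.16%, 2.92% and 2.98% of the IP channel in controls and 3.48%, 3.11% and 3.73% in Cd. They held 5.12%, 5.05% and 5.30% of the supernatant channel in controls and 5.02%, 5.38% and 6.03% in Cd. The SM share was larger in the supernatant than in the IP on all 6 arrays. Between the treatment groups the shares overlapped in both channels (exact permutation tests, p = 0.2 for IP and p = 0.5 for supernatant, 2-sided).

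A few SM probes held much of the SM intensity, and more so in the IP than in the supernatant. Brightness also depends on how well each probe binds and is labelled, so these shares are of signal and not of RNA amount. The 10 brightest probes of each array held 42.0%, 46.1% and 42.5% of the SM intensity in control IP and 45.8%, 47.4% and 43.8% in Cd IP. In the supernatant the 10 brightest held 25.6%, 23.8% and 22.6% in controls and 22.2%, 24.9% and 21.7% in Cd. The IP share was above the supernatant share on every array. Between 12 and 16 probes were enough for 50% of the SM intensity in the IP, and between 38 and 50 in the supernatant.

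The share of the single brightest probe in the IP was 8.29%, 8.77% and 7.31% in controls and 10.2%, 9.98% and 10.4% in Cd, with no overlap (exact permutation test, p = 0.1, 2-sided). The 50 brightest held 71.3% ± 1.62 (SD, n = 3) of control IP and 75.9% ± 1.24 (SD, n = 3) of Cd IP, also without overlap (exact permutation test, p = 0.1, 2-sided). The share of the 10 brightest overlapped between the groups in the IP (difference 2.10 percentage points, exact permutation test, p = 0.3, 2-sided) and in the supernatant (-1.05 percentage points, exact permutation test, p = 0.5, 2-sided). On background-subtracted intensity without dye normalization, the share of the 10 brightest differed by -4.03 percentage points in the IP and by 2.78 in the supernatant, the opposite signs. The shares of the single brightest and the 50 brightest were not run in that way.

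**Figure D2:**
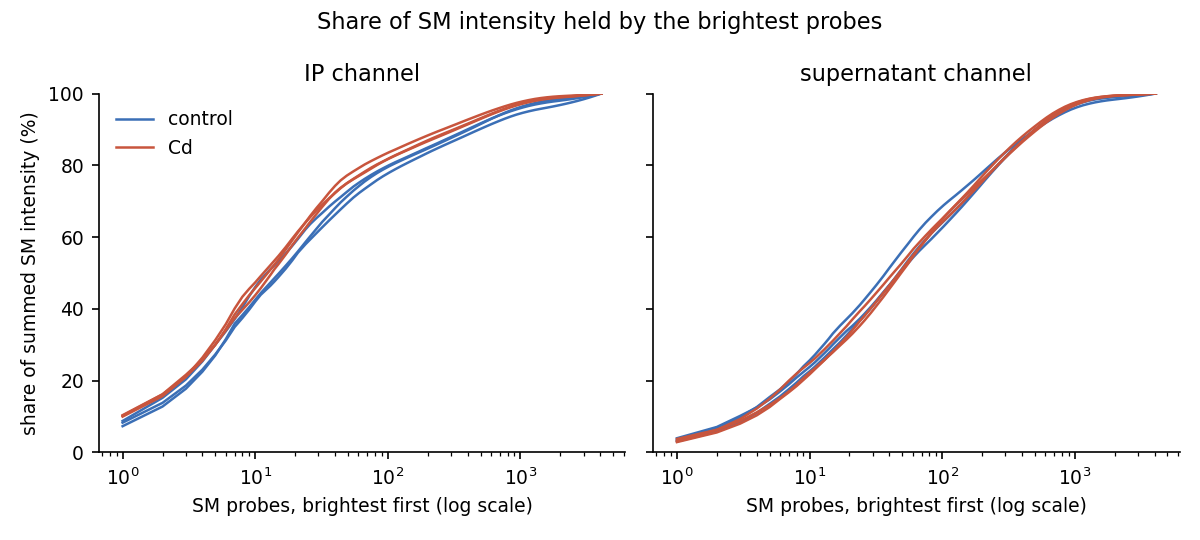
Cumulative share of summed SM intensity (vertical axis, percent) against the number of SM probes counted from the brightest (horizontal axis, log scale), 1 line per array, IP left and supernatant right. The 10 brightest probes hold 42.0% to 47.4% in the IP and 21.7% to 25.6% in the supernatant.

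The brightest probes were largely the same from array to array. Of the SM probes that reached the 10 brightest of the IP channel on any array, 14 in all, 7 did so on all 6 arrays. In the supernatant the figures were 16 and 6. The IP and supernatant lists, each ranked by the mean over arrays, shared 4 of their 10 probes. The leading SM RNAs of the fractions were thus partly different, which the values of the 10 brightest probes show one by one.

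For each probe the RNA level was taken as log2 of the summed intensity of both channels, less the array's 75th percentile, and the ratio as log2 of IP over supernatant intensity, less the array's median over probes measured in both channels. A ratio of 0 is therefore the division of a typical probe of the same array, not equal amounts. Groups were compared with limma over every probe of the array that was above background on at least 3 arrays, with Benjamini-Hochberg adjustment over all of them.

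The brightest SM probe, ASMM10SM1100119831, ranked ninth in level among all probes of the array. Its IP intensity was 201560, 273270 and 248970 in controls and 541740, 408610 and 509590 in Cd. Its supernatant intensity was 129830, 144240 and 146810 in controls and 136410, 253460 and 180090 in Cd. The IP groups were far apart while the supernatant groups overlapped, and the level was 8.98, 8.73 and 8.58 in controls and 9.30, 9.29 and 9.48 in Cd. The log2 difference in level, Cd minus control, was 0.59 (SE 0.19) and did not pass (limma, adjusted p = 0.445), and it was 0.13 with quantile normalization. The difference in the IP channel was 0.74 (SE 0.25), and it was 0.23 without dye normalization and 0.07 with quantile normalization. Its ratio was 0.72, 0.95 and 0.74 in controls and 2.01, 0.70 and 1.49 in Cd, and these overlapped.

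ASMM10SM1100121589, the fifth brightest, differed most in ratio among the 10. In the IP its intensity was 102700, 116040 and 168790 in controls and 234480, 232730 and 204310 in Cd, and its supernatant intensity was 98737, 143480 and 126890 against 88062, 109000 and 103260. Its ratio was 0.14, -0.28 and 0.39 in controls and 1.43, 1.11 and 0.98 in Cd, with no overlap. The log2 difference in ratio was 1.09 (SE 0.28), which did not pass (limma, adjusted p = 0.886), and it was 0.27 without dye normalization. Its level differed by 0.14 (SE 0.17), within the spread of the arrays.

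ASMM10SM1100142723, the sixth brightest, was on the supernatant side. The IP intensity was 28005, 31147 and 27791 in controls and 130310, 49590 and 88827 in Cd, so all Cd arrays lay above all control arrays. Its supernatant intensity was 131870, 201270 and 185630 in controls and 281320, 259060 and 212240 in Cd. Its ratio was -2.15, -2.67 and -2.76 in controls and -1.09, -2.37 and -1.26 in Cd, and the log2 difference in the IP channel was 1.25 (SE 0.39; limma, adjusted p = 0.605). ASMM10SM1100024964 and ASMM10SM1100054758 had the same layout, with control ratios between -2.70 and -2.14 for the former and between -1.94 and -1.34 for the latter.

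The other 5 of the 10 brightest were spread on both sides of the array median ratio. ASMM10SM1100005063, ASMM10SM1100153773 and ASMM10SM1100034958 had control ratios of 0.71 to 0.98, 0.66 to 1.31 and 0.57 to 0.65. ASMM10SM1100129028 ran from -0.14 to 0.45 and ASMM10SM1100080010 from -1.29 to -0.47. Of the 10 brightest, 3 were at -1.3 or lower on every control array, 4 were above 0.5 on every control array, and 3 lay between.

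**Figure D3:**
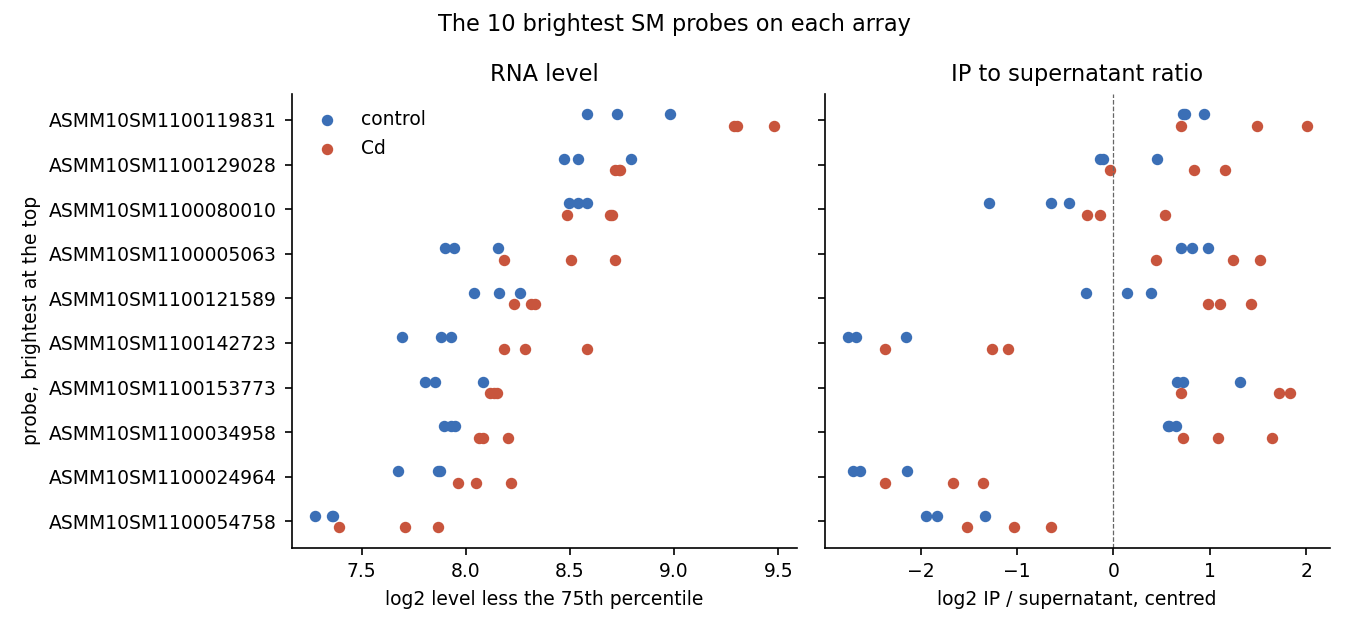
RNA level (left, log2 less the array's 75th percentile) and IP to supernatant ratio (right, log2 centred on the array median) of the 10 brightest SM probes, 1 point per array. ASMM10SM1100119831 is brightest, with levels of 8.58 to 8.98 in controls and 9.29 to 9.48 in Cd, and the ratios run from -2.76 to 2.01.

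The mean ratio was higher in Cd for all 10 of these probes. Their median ratio was 0.00, 0.09 and 0.14 in controls and 1.30, 0.20 and 0.91 on the Cd arrays, a difference of 0.72 without overlap (exact permutation test, p = 0.1, 2-sided). The same was seen in other bright probes. The 137 probes outside the SM series that were at least as bright as the tenth SM probe had a median ratio of -0.95 ± 0.14 (SD, n = 3) in controls and -0.23 ± 0.61 (SD, n = 3) in Cd, a difference of 0.72 (exact permutation test, p = 0.2, 2-sided), and all 137 had the higher mean in Cd. Without dye normalization the difference was -0.16 for the 10 SM probes, 4 of which were then higher in Cd, and -0.08 for the 137 others. The higher ratio of the brightest SM probes in Cd was therefore neither particular to SM probes nor kept under that setting.

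Most SM RNAs stood on the supernatant side of the array. Over the 1130 SM probes measured in both channels, the median ratio was -1.33, -1.94 and -1.81 in controls and -1.64, -1.87 and -1.48 on the Cd arrays. The 22658 other probes had medians between 0.04 and 0.05. The SM median was below that of the other probes by 1.37 to 1.98 log2 units on each of the 6 arrays, with a mean difference of -1.72 (exact sign-flip permutation test over arrays, p = 0.031, 2-sided, the smallest that 6 arrays allow). The size depended on the setting. The mean difference was -0.67 with the normexp setting, which also left out dye normalization and added a constant to the signals. It was -0.06 when all probes were used whether above background or not. Which part of these settings changed the size was not tested.

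**Figure D4:**
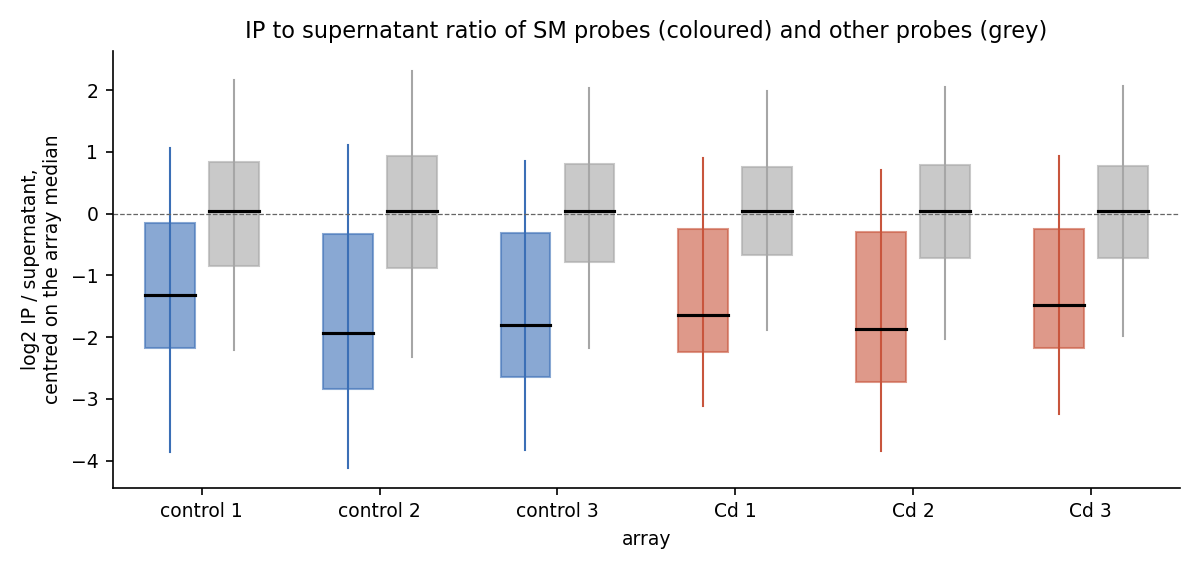
Log2 ratio of IP over supernatant, centred on the array median, for 1130 SM probes (coloured) and 22658 other probes (grey) on each array. Boxes span the 25th to 75th percentiles, whiskers the 5th to 95th, and the black line is the median; SM medians run from -1.94 to -1.33, and those of the other probes are near 0.04.

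The offset reached across the distribution, with a 95th percentile of 0.70 to 1.11 in SM probes and of 1.98 to 2.31 in the others. On the 6 arrays, 77.2% to 83.3% of SM probes lay below the array median ratio, against 48.3% to 48.6% of other probes. Ratios more than 4-fold to the supernatant side were held by 29.2% to 48.3% of SM probes and by 4.01% to 7.61% of the others. Ratios more than 4-fold to the IP side were held by 0.354% to 1.42% of SM probes and by 4.89% to 7.60% of the others. On all 6 arrays together, 784 SM probes (69.4%) were on the supernatant side and 106 (9.38%) on the IP side, while 6892 (30.4%) and 7399 (32.7%) of the other probes were. There were 28 SM probes more than 16-fold to the supernatant side on every array and 0 among the other 22658.

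The offset from the other probes was also taken by tier of level. SM probes were divided by their mean level into 4 tiers of 393 or 394 probes, and each tier was set against other probes in the same range of level. A ratio needs a signal above background in both channels, which 83, 286, 368 and 393 SM probes had from the dimmest tier to the brightest. Dim probes seen in the supernatant alone thus have no ratio, and the size of the offset in the dim tiers is partly set by that filter. In the dimmest tier the SM median was -0.10 from that of the others (exact sign-flip permutation test over arrays, p = 0.125, 2-sided). In tiers 2, 3 and 4 the offset was -0.87, -1.95 and -2.43 log2 units (exact sign-flip permutation tests, p = 0.031 each and 0.0417 after adjustment over 4 tiers). The 10 brightest departed from their tier, with a control median ratio of 0.08 ± 0.07 (SD, n = 3) against -2.44 ± 0.39 (SD, n = 3) for the brightest tier.

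The extremes of the ratio show the range among the 624 SM probes above background in both channels on all 6 arrays. The 65 SM probes above background in the supernatant on all 6 arrays and never in the IP could not enter. The probes below were named by their control ratios, so their order is a description. The lowest control ratios belonged to ASMM10SM1100116272, at -5.93, -5.80 and -5.75 in controls and -4.81, -5.57 and -5.19 in Cd. Its IP intensity was 242, 306 and 392 in controls against 15717, 17341 and 20818 in the supernatant. ASMM10SM1100052062, ASMM10SM1100106767, ASMM10SM1100066852 and ASMM10SM1100021473 followed, with every control ratio between -6.02 and -5.09. All 5 were bright in the supernatant. A signal above background in the IP on every array was a condition for entering this list.

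At the IP end, ASMM10SM1100150461 had ratios of 2.67, 3.28 and 2.48 in controls and 1.96, 1.98 and 2.49 in Cd. The IP intensity of this probe was 4041, 5146 and 3679 in controls and 2234, 3273 and 3054 in Cd, so the control arrays were higher, while its supernatant intensity overlapped between the groups. ASMM10SM1100118571 came next at 2.34, 2.77 and 2.48 in controls, followed by ASMM10SM1100145616, ASMM10SM1100095779 and ASMM10SM1100024618. Of these, ASMM10SM1100145616 was the sixteenth brightest SM probe. Its ratio was 2.61, 2.33 and 1.82 in controls and 2.05, 1.26 and 2.12 in Cd, which overlapped. Near the middle of the series, ASMM10SM1100022431 had ratios of -1.24, -2.04 and -1.76 in controls and -0.84, -1.79 and -1.53 in Cd.

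Between control and Cd, no SM probe passed an adjusted p of 0.05 in level, ratio, IP channel or supernatant channel (limma). The smallest adjusted p of an SM probe was 0.417 for level, 0.544 for ratio, 0.492 for IP and 0.416 for supernatant. Over all probes the share called was 0.0% of 30518 for level, 0.0042% of 23788 for ratio (1 probe, not of the SM series), 0.0% of 27413 for IP and 0.0% of 26878 for supernatant. The 95% interval of a single SM probe's difference reached a median of 0.56 log2 units to either side in level, 0.74 in ratio, 0.70 in IP and 0.61 in supernatant. These intervals are for 1 probe and are not adjusted for the number of probes tested. With 3 arrays a group, a difference beyond them could still fail to pass.

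At an unadjusted p under 0.05, the SM counts leaned to higher values in Cd. In level, 214 of 1573 SM probes (13.6%) were higher and 36 (2.29%) lower, where the share of all probes was 6.18% higher and 4.08% lower. All 3 Cd arrays lay above all 3 control arrays for 332 SM probes (21.1%; 10.6% of all probes) and below them for 50 (3.18%; 8.87% of all probes). None of these counts rests on adjusted calls, and they were made over probes that passed a detection filter which the Cd arrays met more often. Of the 1573, 53 were above background on no control array and 0 on no Cd array, and 30 of the 214 came from those 53. Over the 1164 SM probes that were above background on all 6 arrays, 174 (14.9%) were higher and 32 (2.75%) lower, where all probes gave 6.84% and 5.35%.

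The IP and the supernatant showed the same lean. In the IP channel 171 of 1204 SM probes (14.2%) were higher in Cd and 21 (1.74%) lower at an unadjusted p under 0.05, against 4.65% and 3.35% of all probes. In the supernatant channel 166 of 1502 (11.1%) were higher and 20 (1.33%) lower, against 6.57% and 2.99% of all probes. In the ratio, 35 of 1130 SM probes (3.10%) were higher and 22 (1.95%) lower, against 2.48% and 2.44% of all probes. Single arrays moved these counts by over 1.5 times. Fits with 1 array fewer also have less power. In the IP, 70 (5.81%) were higher without Cd replicate 1, where all probes gave 2.23%. Without control replicate 2, 91 (7.56%) were higher (3.38% of all), and without Cd replicate 3, 101 (8.39%) were (4.90% of all). The median over SM probes of the IP difference was 0.29, 0.24 and 0.21 in these fits, against 0.30 with all arrays. In the supernatant, 92 (6.13%) were higher and 55 (3.66%) lower without Cd replicate 3, against 4.01% and 2.66% of all probes. Without control replicate 1, 99 (6.59%) were higher, against 4.91% of all probes. In the ratio, 66 (5.84%) were higher and 19 (1.68%) lower without control replicate 1, against 3.10% and 2.70% of all probes. Without Cd replicate 2, 64 (5.66%) and 12 (1.06%) were, against 2.58% and 1.64% of all. Without Cd replicate 1, 11 (0.973%) and 16 (1.42%) were, against 1.12% and 1.35% of all. With normexp, 9 (0.796%) and 37 (3.27%) were, against 1.57% and 1.31% of all. The level and both channels come from the same spots, so these counts are not independent of each other.

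As a whole, the level of the tested SM probes was slightly higher in Cd, by an amount close to the spread of the arrays. The median level was 0.01, 0.05 and 0.15 in controls and 0.22, 0.15 and 0.44 on the Cd arrays, a difference of 0.20 with overlap (exact permutation test, p = 0.2, 2-sided). The highest value was that of Cd array 3. The median of the other probes differed by -0.02 between the groups. The median in the supernatant channel was 0.64, 0.82 and 0.89 in controls and 0.97, 0.95 and 1.12 in Cd, without overlap (difference 0.23, exact permutation test, p = 0.1, 2-sided). In the IP channel it was -0.17, -0.41 and -0.21 in controls and -0.06, -0.23 and 0.20 in Cd, with overlap (difference 0.23, exact permutation test, p = 0.3, 2-sided). The median ratio differed by 0.03 (exact permutation test, p = 0.9, 2-sided). Without Cd replicate 3 the differences were 0.11 in level, 0.18 in supernatant, 0.12 in IP and -0.07 in ratio. In bulk sperm RNA, fewer cells that carry an RNA and less of it per cell cannot be told apart.

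The direction of the level difference held over the tested probes only. When all SM probes were used, dim ones included, the median differences became -0.34 in level, -0.72 in IP and -0.11 in supernatant, and 149 of 4065 SM probes (3.67%) were higher and 981 (24.1%) lower at an unadjusted p under 0.05. Over all probes without the filter, 2.0% were higher and 18.3% lower, so the turn to lower values was seen across the array. The floor of dim spots was lower on the Cd arrays. The 25th percentile of SM intensity was 36.8, 29.6 and 25.1 in control IP and 18.8, 21.0 and 23.0 in Cd IP. The part of this floor in the turn to lower values was not tested. Single arrays also mattered to the counts. Without control replicate 2, 128 SM probes (8.14%) were higher in level, against 3.44% of all probes. Without control replicate 3, 137 (8.71%) were, against 4.09% of all probes. Without Cd replicate 3, 141 SM probes (8.96%) were higher and 77 (4.90%) lower in level, where all probes gave 5.37% and 4.88%, and with control replicate 1 left out as well, 152 (9.66%) were higher and 67 (4.26%) lower, where all probes gave 5.59% and 4.49%.

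By abundance tier, the level difference was of similar size from dim to bright. In the dimmest tier the median level was -1.99, -2.19 and -1.97 in controls and -2.01, -1.99 and -1.70 in Cd, with overlap (difference 0.15, exact permutation test, p = 0.5, 2-sided). In the second tier it was -0.69, -0.67 and -0.61 in controls and -0.57, -0.55 and -0.38 in Cd, a difference of 0.16 without overlap. The third tier gave 0.70, 0.82 and 0.89 in controls and 0.99, 1.01 and 1.07 in Cd, a difference of 0.22 without overlap. The brightest tier gave 2.57, 2.80 and 2.80 in controls and 2.88, 3.03 and 2.90 in Cd, a difference of 0.21 without overlap. In these 3 tiers p was 0.1 and 0.133 after adjustment over 4 tiers (exact permutation tests, 2-sided). Without Cd replicate 3 the differences were 0.05, 0.10, 0.20 and 0.23 from dim to bright. Other probes in the same ranges of level differed by -0.01 to 0.06. With normexp background correction the first and second tiers turned to -0.10 and -0.005. Over the alternatives tried, single arrays left out aside, the third tier gave 0.17 to 0.24 and the brightest 0.16 to 0.33.

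Each fraction and the ratio were compared by tier as well. The IP difference was 0.27, 0.16, 0.20 and 0.43 from the dimmest tier to the brightest, and it was without overlap in the dimmest and the brightest (exact permutation tests, p = 0.1, 0.3, 0.3 and 0.1, 2-sided; 0.2 or higher after adjustment). The supernatant difference was 0.14, 0.18, 0.19 and 0.20, with overlap in each tier and p of 0.2 or higher (exact permutation tests, 2-sided). The ratio differed by 0.06, 0.14, -0.01 and 0.16, with overlap in each tier and p of 0.4 or higher (exact permutation tests, 2-sided). Whether the differences differ between tiers was not tested.

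**Figure D5:**
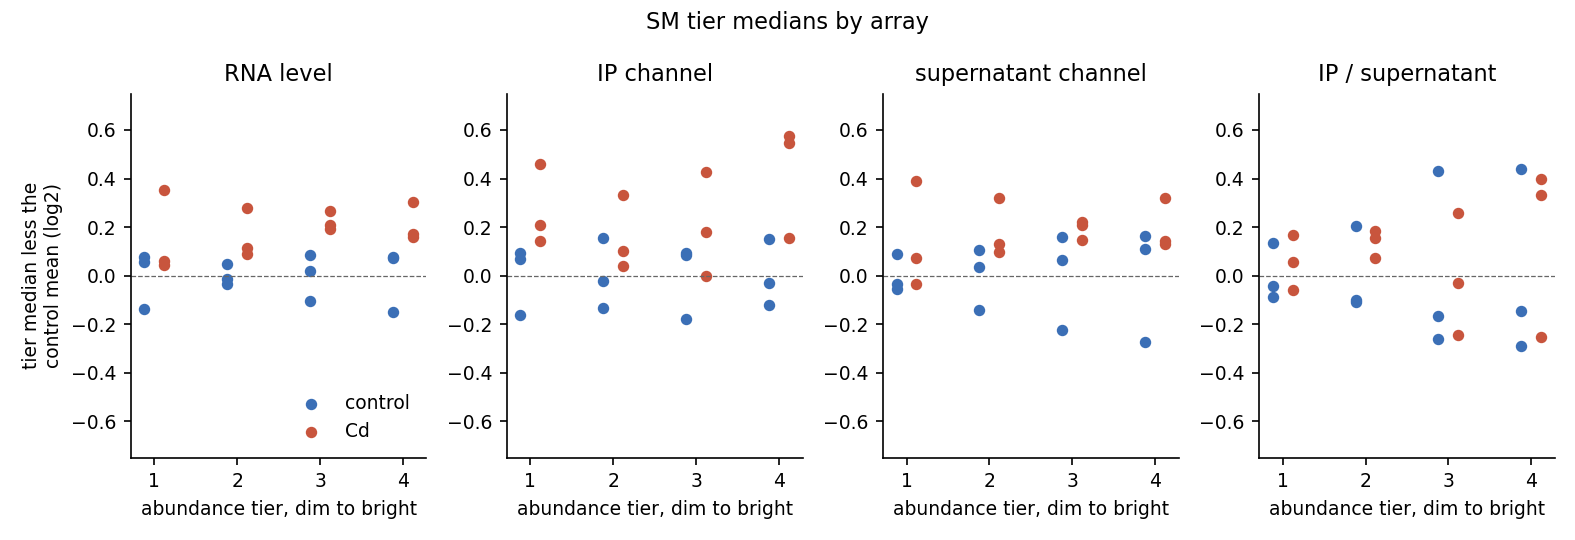
Median of each SM abundance tier on each array less the mean of the 3 control arrays (vertical axis, log2), for RNA level, IP channel, supernatant channel and ratio; tier 1 is the dimmest. In level the Cd arrays lie above the control arrays in tiers 2 to 4, while the ratio overlaps in every tier.

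Single probes with the smallest unadjusted p among well-measured SM probes, none of which passed the adjustment, show how large the differences were. ASMM10SM1100007728 had an IP intensity of 481, 1613 and 1228 in controls and 3387, 3736 and 1922 in Cd. Its supernatant intensity was 408, 1149 and 1189 in controls and 2667, 2893 and 2071 in Cd. Both fractions were higher on every Cd array, and the level differed by 1.35 (SE 0.31; limma, adjusted p = 0.438) while the ratio differed by -0.08 (SE 0.28). Control array 1 was well below the other control arrays for this probe.

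ASMM10SM1100157871 and ASMM10SM1100147575 had the same shape at higher intensity. For the former the supernatant intensity was 4610, 7082 and 6553 in controls and 19669, 10360 and 15357 in Cd, and the level differed by 1.02 (SE 0.27; limma, adjusted p = 0.438). For the latter it was 2723, 4298 and 4520 in controls and 10512, 6665 and 9802 in Cd, and the level differed by 1.04 (SE 0.24; limma, adjusted p = 0.438). In processed intensity, the Cd arrays of each of these probes stood apart from the control arrays in both fractions. Scaled within each array, the log2 IP value of ASMM10SM1100157871 overlapped, with 2.58, 1.92 and 2.13 in controls and 3.38, 2.46 and 3.49 in Cd. These probes were chosen among those without overlap in level, so their separation is partly set by that choice. ASMM10SM1100147754, ASMM10SM1100114931 and ASMM10SM1100040914 differed in level by 0.97, 0.79 and 0.75, and their ratios differed by less than 0.25 in size.

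The probes with lower values in Cd differed in how far each fraction was lower. They were chosen among probes without overlap in level or in ratio, so their separation is partly set by that choice too. ASMM10SM1100162469 had lower values in the IP without overlap, with intensities of 1179, 809 and 976 in controls and 228, 229 and 274 in Cd. Its supernatant intensity was 455, 532 and 442 in controls and 291, 411 and 489 in Cd, which overlapped. Its ratio was 1.46, 0.63 and 1.12 in controls and -0.34, -0.83 and -0.84 in Cd, a log2 difference of -1.74 (SE 0.31; limma, adjusted p = 0.544). All control ratios were above the array median and all Cd ratios below it, and its level differed by -1.45 (SE 0.30).

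ASMM10SM1100035163 had the same pattern. Its IP intensity was 1271, 1033 and 1035 in controls and 232, 460 and 447 in Cd, while its supernatant intensity was 409, 492 and 455 against 288, 530 and 425. The ratio was 1.72, 1.1 and 1.17 in controls and -0.29, -0.19 and 0.07 in Cd, a log2 difference of -1.47 (SE 0.28; limma, adjusted p = 0.605). For these probes the difference in ratio was -0.61 and -0.52 with normexp, so its size depends on the setting. It was -1.68 and -1.37 without dye normalization. ASMM10SM1100059503 and ASMM10SM1100135418 also had lower ratios in Cd, by 0.80 and 0.86 log2 units, and neither passed (limma, adjusted p = 0.975 each). Lying lower on every Cd array was a condition for naming probes by ratio.

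ASMM10SM1100106767, one of the probes with the lowest control ratios, had lower values in the supernatant on every Cd array. Its supernatant intensity was 9902, 12621 and 13121 in controls and 4870, 5296 and 8695 in Cd. Its IP intensity was 255, 211 and 285 in controls and 211, 177 and 188 in Cd. Scaled within each array, its log2 IP value was -0.22, -1.09 and -0.74 in controls and -1.24, -1.48 and -1.26 in Cd, without overlap. The difference in the IP channel was -0.65 (SE 0.29; limma, adjusted p = 0.630). The level differed by -1.18 (SE 0.28; limma, adjusted p = 0.438) and the supernatant channel by -1.19 (SE 0.29; limma, adjusted p = 0.457). ASMM10SM1100150461, ASMM10SM1100001074 and ASMM10SM1100050398 were lower in level in Cd by 0.73, 0.53 and 0.45 log2 units, and none passed. Lying lower in level on every Cd array was a condition for naming these probes and ASMM10SM1100106767.

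In ratio, the probes that stood higher in Cd by the same rule were ASMM10SM1100121589, ASMM10SM1100080010, ASMM10SM1100116272 and ASMM10SM1100096407. That rule left out any probe whose groups overlapped in ratio. ASMM10SM1100080010 had ratios of -0.65, -1.29 and -0.47 in controls and 0.54, -0.27 and -0.14 in Cd, a difference of 0.84 that was -0.13 without dye normalization and -0.01 with normexp. ASMM10SM1100116272 differed by 0.64, and by 0.10 with normexp. ASMM10SM1100096407 differed by 0.56. The values of ASMM10SM1100096407 were -1.35, -1.39 and -1.05 in controls and -0.43, -0.95 and -0.72 in Cd, and its difference was 0.15 without dye normalization. None of the 4 passed (limma, adjusted p = 0.886 for the first and 0.975 for the others).

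The authors' deposited table of log2 IP values lists 1339 SM probes among 30284. In the authors' deposited table each array's values equal the log2 processed IP signal less 1 constant, and what that constant is stays unknown. Tested in the same way on the authors' deposited table, 264 SM probes were higher in Cd and 6 lower at an unadjusted p under 0.05, where its listed probes as a whole gave 7.4% and 0.492%, and 0 SM probes passed the adjustment (limma, smallest adjusted p = 0.554; 0.0% of its probes passed). The SM medians of the authors' deposited table were -3.21, -2.58 and -2.54 in controls and -2.36, -2.20 and -2.38 in Cd, and its medians over all listed probes were -2.87, -2.0 and -2.16 against -2.11, -1.81 and -2.36. The columns of the authors' deposited table are thus not centred on a common median.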

How the data were processed

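Two-colour arrays from 3 control and 3 Cd sperm samples were used as the authors deposited them. Per the file headers, background subtraction and linear plus lowess dye normalization made the spot intensity values, in Agilent Feature Extraction 11.0.1.1. The log10 ratios the authors deposited were compared with these. Their series table of log2 IP values, as deposited, was an alternative. The scanner's flags, deposited as 0 or 1, gave detection, here "well above background".

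Control spots and spots with an outlier flag (32 of SM probes over the 6 arrays) were left out. Level and channel values were log2 less each array's 75th percentile, and ratios were centred on the array median. Probes entered a test when above background on at least 3 arrays (both channels for the ratio), and 22 SM probes were dropped for a missing value. limma 3.58.1 (lmFit, eBayes) in R 4.3.3 was fitted on all passing probes, 2-sided, with Benjamini-Hochberg adjustment at 0.05; single values per array used exact permutation tests in Python 3.11.15. The procedure was tested on simulated data.

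Named probes were the 10 of highest mean level, and up to 6 (level) or 4 (ratio) in each direction by smallest unadjusted p, among probes above background in both channels on all 6 arrays and without overlap. Also named were the 5 highest and 5 lowest control ratios among probes above background in both channels on all 6 arrays, and the probe nearest the median. ASMM10SM1100092164 was added after its values were seen. The members, lists and tests were chosen with earlier results of these data known. Alternatives were normexp, no dye normalization, other filters, quantile normalization, a replicate block, a variance trend and single arrays left out. The normexp setting started from median signals, added an offset of 50 and also left out dye normalization. For arrays, their number limits the precision. Scan could not be fitted as a block, since each group lay in 1 scan.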

Additional observations from a re-analysis of the deposited data

How the results depend on the processing

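No SM probe passed in level, ratio or IP under any alternative tried, and in the supernatant 1 did, without dye normalization (ASMM10SM1100092164, adjusted p = 0.0493). That probe was well above background in the supernatant on no control array and on 3 Cd arrays. The count of SM probes at unadjusted p under 0.05 in level, 250, became 1130 without a detection filter (149 higher, 981 lower; all probes 1202 and 11018 of 60115) and 163 to 250 with single arrays left out. The replicate numbers were not used as pairs. Deviations in level from the group means correlated at -0.41, 0.43 and 0.004 between same-numbered arrays 1 to 3. With 3 arrays a group, these values cannot decide whether the samples were paired. A replicate block gave 208 with no SM probe called. Of the tested SM probes, 178 (11.3%) were then higher and 30 (1.91%) lower, against 4.89% and 2.95% of all probes. Without the filter, the median differences were -0.34 in level, -0.72 in IP, -0.11 in supernatant and -0.022 in ratio, and the SM level less that of other probes was -0.30. The ratio difference, 0.03, was -0.16 with normexp, -0.040 with quantile normalization and -0.10 to 0.21 with single arrays left out. The SM offset in ratio was -1.79 to -1.67 on 5 arrays (exact sign-flip permutation test, p = 0.0625, the smallest that 5 arrays allow). Without dye normalization, the share of the 10 brightest differed by -4.03 points in IP and 2.78 in supernatant, and their ratio by -0.16. Tiers 1 and 2 in level gave -0.10 and -0.0046 with normexp.

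Among sets chosen after the data were seen, the 10 brightest in supernatant gave -0.11 to 0.13 with single arrays left out (-0.05 without control replicate 3), the 50 brightest in supernatant -0.046 without Cd replicate 3 and -0.032 without control replicate 1 as well, and the 100 brightest in level -0.069 without both and -0.034 to 0.18 with single arrays left out. Quantile normalization turned the level difference of ASMM10SM1100129028 to -0.23, ASMM10SM1100080010 to -0.26, ASMM10SM1100121589 to -0.11, ASMM10SM1100153773 to -0.024 and ASMM10SM1100034958 to -0.052. The ratio of ASMM10SM1100080010 became -0.0086 with normexp and -0.13 without dye normalization. The cause was not tested in any of these. In all, 203 further values of main comparisons and 541 of single probes and added sets kept their direction and side of the threshold.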
